A study of Rattus norvegicus with 18 samples.

Results

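Bdnf encodes brain-derived neurotrophic factor, a secreted growth factor of neurons and a gene whose transcription responds to neuronal activity. The CpGs described here are those on chromosome 3 of the rat build rn6 in a window of Bdnf with about 5 kb on each side, of which the first measured lay at 100767438 and the last at 100816034. The window held 369 of the 2330883 measured cytosines. With both strands of a CpG averaged, these were 212 of 1324344 CpGs, of which 157 were measured on both strands. A CpG cluster was defined as a run of measured CpGs with gaps of at most 300 bp and at least 5 CpGs. Bdnf held 9 of 62552 clusters, with 208 of its 212 CpGs, and the other 4 CpGs formed a run of their own.

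Reduced representation bisulfite sequencing, which reads methylated cytosines in fragments cut by the enzyme MspI, was applied to the left hippocampus of 18 Sprague-Dawley rats, all adult males. Kindling (KI) sham had 4 rats, and kindling seizure had 4 rats in which daily stimulation through hippocampal electrodes was repeated up to full kindling. Kainic acid (KA) sham had 7 rats, and kainic acid seizure had 3 rats with electrodes in which systemic injections of this glutamate receptor agonist induced status epilepticus. Both seizure groups are labelled 3 Class V, the convulsive end of the behavioural scale, and their tissue was taken 24 hours after the last seizure. The treatment of the sham rats was not given in the sources used here, and the seizure groups of both models differ in more than the agent, so a difference between models is one between whole procedures. A value from the whole hippocampus averages over its neurons and glia, and a change in cell make-up and a change within cells cannot be told apart. The labels number the rats within each group, and each number is taken as 1 animal.

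Rat Bdnf is known to have several alternative first exons, each with a promoter of its own, all spliced to a common coding exon near the end of the gene. Transcription from some of these promoters rises with calcium entry, through factors such as CREB that bind the cyclic AMP response element. The protein acts through the receptor TrkB, encoded by Ntrk2, and methylation of CpGs in Bdnf promoters has been studied widely in relation to neuronal activity. Methylated CpGs at an active promoter are usually rare, and those in gene bodies are usually common.

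RefSeq gives 11 Bdnf transcripts with 6 start windows of 300 bases (250 before and 50 after the start) in the build GRCr8, on the plus strand. Counted from the first start, the starts lie at 0, 1202, 2338, 18225, 20169 and 20225 bases in that build. No rn6 annotation was used here, so exons and introns are not assigned to the rn6 positions. Windows were placed on the rn6 table by the exact spacing of their CpGs. Start 5 was the only Bdnf window with a place. It had 9 of its 12 CpGs in the table at 1 place and none elsewhere, which sets the start at position 100788806 of rn6. The windows of starts 1, 2, 3, 4 and 6 found no place of their own, and that of start 6 overlaps the window of start 5. The 250 bases before start 5 and before start 4 are shown because the first is the stretch whose methylation was read and the second is a promoter stretch without an MspI site. The capitals mark each CpG. They lie in GRCr8 at chr3:116639552-116639801 and chr3:116637608-116637857.

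Bdnf start 5: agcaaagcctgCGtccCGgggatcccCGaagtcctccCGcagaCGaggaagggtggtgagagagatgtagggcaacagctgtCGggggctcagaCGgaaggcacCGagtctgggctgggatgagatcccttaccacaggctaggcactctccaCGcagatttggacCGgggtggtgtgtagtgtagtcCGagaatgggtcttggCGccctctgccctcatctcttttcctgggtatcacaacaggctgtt

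Bdnf start 4: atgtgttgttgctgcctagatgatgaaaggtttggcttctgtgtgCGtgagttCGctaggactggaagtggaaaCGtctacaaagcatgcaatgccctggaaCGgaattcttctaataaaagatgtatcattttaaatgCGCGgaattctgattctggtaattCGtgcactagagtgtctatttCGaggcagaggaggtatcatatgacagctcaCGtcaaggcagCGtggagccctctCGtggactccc

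The stretch before start 5 holds 12 CpGs, 2 of them inside CCGG, the site that MspI cuts. The stretch before start 4 holds 11 CpGs and 0 CCGG. Within the full windows, CCGG was found for 3 of the 6 starts, against 51.4% of 33469 RefSeq windows of the same length. The windows of starts 5 and 6 overlap, and the CCGG of start 6 is also counted for start 5. The full cyclic AMP response element TGACGTCA, searched on both strands, was in 0 of the 6 windows (1.83% of all windows). Its shorter form TGACG or CGTCA, which the full element contains, was in the window of start 4 (21.2% of all windows). CACGTG, a palindrome bound by basic helix-loop-helix factors, was in the window of start 2 (6.42% of all windows). A match is a description of the letters and not a binding site.

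The CpGs of Bdnf fell into 2 kinds of region. Upstream of and around the placed start lay 6 clusters with a median CpG under 10%, called islands below, and downstream lay clusters with a high level. The placed start is start 5, and in GRCr8 starts 1, 2, 3 and 4 lie before it. They are at 0, 1202, 2338 and 18225 bases, against 20169 for start 5. Upstream here therefore means before start 5 and not necessarily before the gene. Those starts were not placed, so the islands are not assigned to them. Of the 212 CpGs, 158 (74.5%) had a mean over the 18 rats under 10%, 48 (22.6%) had one over 90%, and 6 (2.83%) lay between. Clusters 1 to 4 lay 21.4 to 16.9 kb before the placed start, and 15.1 kb without a measured CpG separated them from cluster 5. Cluster 5 lay 1.82 to 1.41 kb before the start, and cluster 6 ran from 1.10 kb before to 0.758 kb after it. After a gap of 9.59 kb came cluster 7 at 10.4 kb and cluster 8 at 12.0 kb. The run of 4 CpGs followed at 14.9 kb, and after 12.1 kb without a measured CpG came cluster 9 at 27.1 kb.

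**Figure D1:**
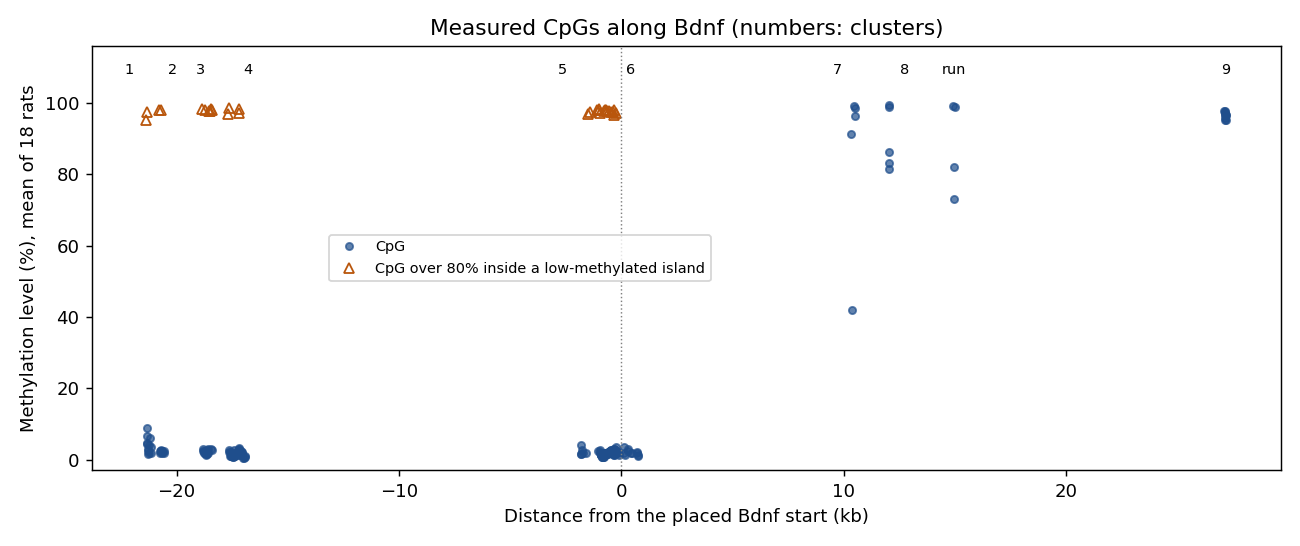
Mean methylation level over the 18 rats (vertical axis, percent) of the 212 measured Bdnf CpGs against their distance from the placed start 5 (horizontal axis, kb). Circles are CpGs, triangles are the 30 CpGs over 80% inside islands, the dotted line is the placed start, and the numerals in the panel name the clusters. Levels lie near the floor in clusters 1 to 6, apart from the triangles, and mostly over 80% downstream.

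Islands held a second, sharply separate class of CpG. Of the 188 CpGs of clusters 1 to 6, 158 lay under 10% and 30 (15.96%) lay over 80%, with 0 in between. The 30 had means of 95.3 to 98.5%, with a median of 97.8%. Of these, 13 were measured on the plus strand only, 13 on the minus strand only and 4 on both, which gave 17 rows of each strand. In 16 of 17 cases the minus-strand row was followed by a plus-strand row 33 to 106 bp further on, and in the other by one at 170 bp. In the table as a whole, 17934 clusters with a median under 10% held 676130 CpGs, and 83313 of these (12.3%) were over 80%, so the class is not particular to Bdnf.

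The sequence before start 5 shows where one of them sits. Counted from base 1 of the printed stretch, its CpG at base 17 (rn6 position 100788572) is in CCGG, was measured on the plus strand only, and had a mean of 97.2%. The CpG at base 12, just before it, had 3.45%, and the CpG at base 27 had 1.87%. The 8 measured CpGs outside CCGG ranged from 1.29 to 3.45%. The other CCGG and the 2 CpGs after it, nearest to the start, were not measured. Among all 6924 RefSeq windows placed in the same way, those of genes whose CpGs outside CCGG had a median under 10% were kept. They held 11023 CCGG CpGs, and 10922 of them (99.1%) were over 80%, with a median of 97.8%. Of 82947 other CpGs in the same windows, 106 (0.128%) were over 80%, with a median of 1.49%. The low level of these other CpGs follows largely from the choice of windows, which did not use the CCGG CpGs. MspI leaves a CG overhang that is filled when the ends are blunted, and the filled cytosine is the minus-strand one at the left end of a fragment and the plus-strand one at its right end. What part this step has in the levels of these CpGs was not tested. Levels of the islands are therefore given below without the 30 CpGs unless all CpGs are stated. The main tests of the clusters and of the gene mean include the 30 CpGs.

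**Figure D2:**
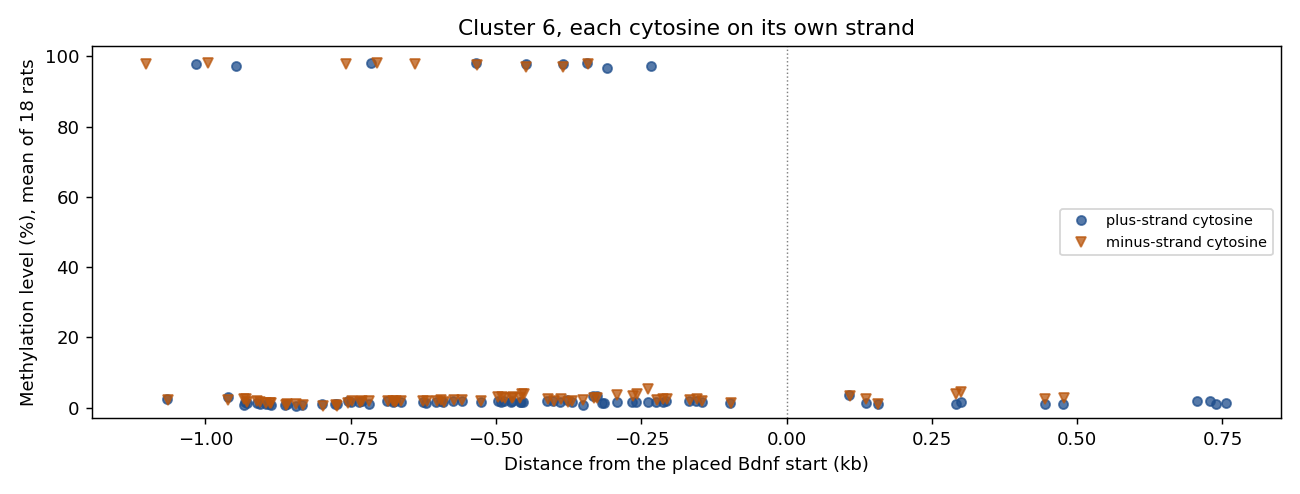
Mean level over the 18 rats (vertical axis, percent) of each measured cytosine of cluster 6 against its distance from the placed start (horizontal axis, kb). Circles are plus-strand and triangles minus-strand cytosines, and the dotted line is the placed start. The high cytosines sit before the start, each beside low neighbours.

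Cluster 6, which holds the placed start, is the longest stretch of Bdnf in the table. It lay at 100787703 to 100789564 with 89 CpGs, 14 of them over 80%. The other 75 had means of 0.726 to 3.47%. With all CpGs the cluster had 16.9 ± 0.641% in kindling sham (SD, n = 4), 17.1 ± 0.758% in kindling seizure (n = 4), 16.8 ± 0.515% in kainic acid sham (n = 7) and 17.2 ± 0.191% in kainic acid seizure rats (n = 3). Without the 14 CpGs, the kindling sham rats had 2.70, 1.47, 2.20 and 1.12%. The kindling seizure rats had 2.51, 1.43, 2.92 and 1.03%, a spread that covers that of their shams. In kainic acid sham rats the lowest, median and highest values were 0.896, 1.78 and 2.60%, and the seizure rats had 1.89, 2.58 and 2.23%. The 3 seizure values lay in the upper part of the sham range, and the groups overlapped in both models.

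Cluster 5, at 100786985 to 100787395, held 8 CpGs, 2 of them over 80%. The other 6 ranged from 1.53 to 4.19%. Without the 2 CpGs, the kindling sham rats had 2.28, 0.991, 4.13 and 0.379% and the kindling seizure rats 2.002, 2.15, 1.75 and 6.09%. 1 seizure rat stood above the rest, and the groups overlapped. With kainic acid the sham rats had a lowest value of 0.407%, a median of 2.17% and a highest of 2.57%, and the seizure rats had 2.43, 2.48 and 3.701%.

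The 4 islands furthest upstream differed in level among themselves. Cluster 1 (100767438 to 100767653, 14 CpGs) had a mean over the 18 rats of 4.04% without its 2 CpGs over 80%, the highest of the islands. Its remaining CpGs ranged from 1.44 to 8.82%. The kindling sham rats had 3.54, 2.79, 4.43 and 2.56%, and the seizure rats sat close together at 3.85, 3.79, 4.12 and 3.91%, within the sham range. The kainic acid sham rats ran from 2.77% over a median of 4.39% to 5.12%, and the seizure rats had 5.05, 4.77 and 4.72%. Cluster 2 (100768035 to 100768257, 13 CpGs) had 2.24%, cluster 3 (100769970 to 100770401, 20 CpGs) had 2.21% and cluster 4 (100771103 to 100771896, 44 CpGs) had 1.56%, each without its CpGs over 80%. In cluster 4 the kindling sham mean was 1.82 ± 0.698% and the seizure mean 1.59 ± 0.505% (SD, n = 4 each). The kainic acid sham mean there was 1.21 ± 0.302% (n = 7) and the seizure mean 1.98 ± 0.825% (n = 3). Of the 3 seizure rats, 1 was at 2.92% and the others at 1.42 and 1.58%, where the sham range was 0.767 to 1.504%.

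The level of the islands varied from rat to rat together with the floor of the whole table. Over 158 island CpGs, the level without the 30 CpGs was 2.02 ± 0.565% in kindling sham (SD, n = 4), 2.08 ± 0.553% in kindling seizure (n = 4), 1.84 ± 0.507% in kainic acid sham (n = 7) and 2.47 ± 0.313% in kainic acid seizure rats (n = 3). The mean of all CpGs of the table that lie under 10% was 1.70 ± 0.567, 1.96 ± 0.725, 1.75 ± 0.435 and 2.19 ± 0.140% in these groups. Across the 18 rats the level of the Bdnf islands and this floor had a Pearson r of 0.908 and a Spearman rho of 0.860. Both p-values, from 100000 two-sided permutations, were 1e-05, the smallest these permutations can give, or 3e-05 adjusted over the 3 sets of rats. Without the 2 rats furthest from the median floor, r was 0.913. Within the 8 kindling rats r was 0.935 (exact permutation p = 0.00285, adjusted 0.00285) and rho 0.857 (p = 0.0107, adjusted 0.0107). Within the 10 kainic acid rats r was 0.925 (permutation p = 0.00053, adjusted 0.000795) and rho 0.867 (p = 0.0023, adjusted 0.00345), and r was 0.704 without 2 rats. Seizure minus sham was 0.0619 points for the islands and 0.258 for the floor in kindling, and 0.632 and 0.442 points in the kainic acid model. With the floor of each rat subtracted, the island difference was -0.196 points in kindling (exact permutation p = 0.286, adjusted 0.524 over 15 tests) and 0.189 points in the kainic acid model (exact permutation p = 0.208, adjusted 0.524). The share of cytosines listed at exactly 0 varied between 8.89 and 25.4% of the table per rat, and in the kainic acid seizure rats it was 8.97, 9.31 and 12.4%. What part the share at 0 has in the island differences was not tested.

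**Figure D3:**
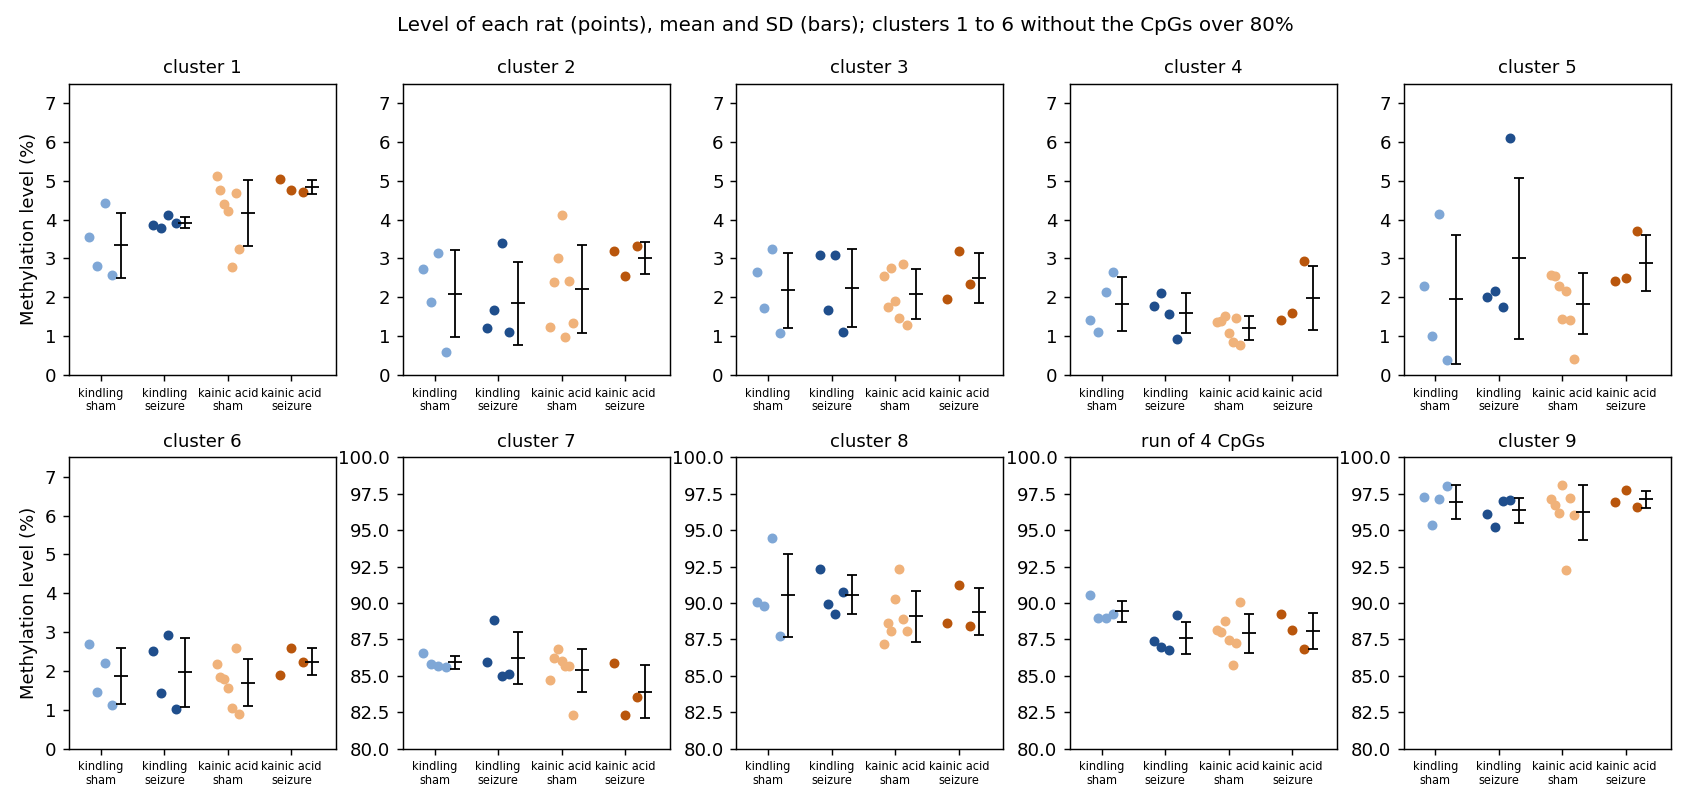
Methylation level (vertical axes, percent; 0 to 7.5 for clusters 1 to 6, 80 to 100 for the others) of each rat at the 9 clusters and the run of 4 CpGs, with clusters 1 to 6 drawn without the CpGs over 80%. Points are rats and bars are the mean and SD of a group. Seizure and sham rats overlap in every panel for both models.

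Downstream of the islands the CpGs were mostly methylated, and the few of intermediate level lay here. Cluster 7 (100799158 to 100799333, 5 CpGs) had a mean over the 18 rats of 85.4%, drawn down by 1 CpG. That CpG, at 100799186, had a mean of 41.9%, while the others of the cluster reached 99.1%. At this CpG the kindling sham rats had 46.8, 41.6, 41.8 and 41.5%, and the seizure rats had 46.7, 55.8, 41.0 and 35.1%. The seizure rats fell on both sides of the sham rats. The kainic acid sham rats had a lowest value of 34.7%, a median of 41.0% and a highest of 45.5%, and the seizure rats had 49.6, 34.4 and 37.8%. Seizure minus sham was 1.75 points in kindling (limma 95% interval -6.88 to 10.4) and 0.180 points in the kainic acid model (-8.25 to 8.61).

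Cluster 8 (100800836 to 100800876, 5 CpGs) had 89.8%. Its CpGs at 100800852, 100800859 and 100800866 had 86.2, 83.1 and 81.4%, and the CpG at 100800836 had 99.3%. The kindling sham rats had 90.1, 89.8, 94.5 and 87.7% and the seizure rats 92.3, 89.9, 89.3 and 90.7% over the cluster. Kainic acid sham rats lay between 87.2 and 92.4% with a median of 88.6%, and the seizure rats had 88.6, 91.3 and 88.4%. Among the 9 Bdnf clusters, cluster 8 varied most from rat to rat, with an SD of 1.89 points. Of 6534 clusters elsewhere with a like level and number of CpGs, 58.6% had a lower SD, and the median SD was 1.72 points. The clusters elsewhere whose levels followed cluster 8 most closely over the 18 rats lay on chromosomes 20, 2, 10, 14 and 4. Their Pearson r was 0.875, 0.803, 0.789, 0.784 and 0.759. They are the highest of 62543 searched, and whether they exceed what such a search gives by itself was not tested. Cluster 9 (100815942 to 100816035, 10 CpGs) had 96.6% with no CpG under 95.1%.

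The run of 4 CpGs at 100803746 to 100803824 had 99.1 and 98.8% at its ends and 72.9 and 82.0% at the 2 CpGs between, 100803763 and 100803788. At 100803788 the kindling sham rats had 85.9, 83.9, 83.0 and 83.2%, and every kindling seizure rat was lower, at 81.3, 80.9, 80.3 and 80.2%. The kainic acid sham rats ran from 77.7 to 86.1% with a median of 82.0%, and the seizure rats had 84.0, 82.4 and 78.9%. At 100803763 the kindling sham rats had 78.0, 74.4, 75.9 and 77.0% and the seizure rats 68.4, 70.8, 69.9 and 76.4%, so that 3 of 4 seizure rats lay under all sham rats. In limma's fit without a range filter, kindling seizure minus sham was -3.27 points at 100803788 (95% interval -7.07 to 0.516, adjusted p = 0.991) and -4.97 points at 100803763 (-10.1 to 0.125, adjusted p = 0.991). In the kainic acid model these differences were -0.0102 and 0.226 points. Both CpGs missed the range filter of the planned test and were singled out after their values were seen. Kindling groups did not overlap at 4 of 212 Bdnf CpGs (1.87% of the table), among them 100803788. Seizure rats were higher at 100767464 (7.40 against 6.33%) and 100769970 (98.5 against 96.8%), and lower at 100815975 (95.6 against 98.6%). The CpG at 100769970 is one of the 30 CpGs over 80% inside the islands.

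**Figure D4:**
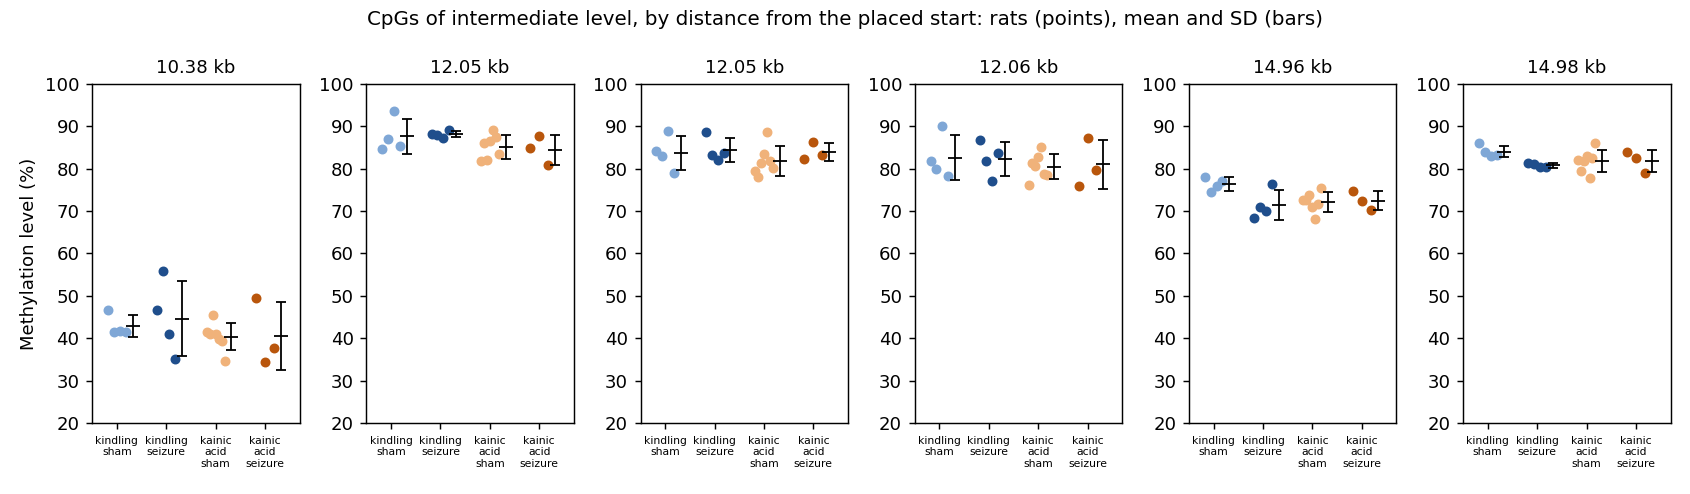
Methylation level (vertical axes, percent, from 20 to 100) of each rat at the 6 Bdnf CpGs with a mean between 10 and 90%, one panel per CpG, titled by distance from the placed start. Points are rats and bars are the mean and SD of a group. At 14.98 kb the 4 kindling seizure rats lie at 80.2 to 81.3%, under the 4 kindling sham rats. Kindling groups did not overlap at 1.87% of all CpGs of the table.

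For the gene as a whole, the difference between seizure and sham rats did not pass the test in either model. The mean over all 212 CpGs was 26.2, 25.2, 26.1 and 25.2% in the kindling sham rats and 26.1, 25.6, 26.2 and 25.4% in the kindling seizure rats. The difference was 0.116 points (25.8 ± 0.377 against 25.7 ± 0.532%, SD, n = 4 each), and a two-sided exact permutation test gave p = 0.6 (adjusted 0.6 over 4 tests). The kainic acid sham rats ran from 24.9 to 25.96% with a median of 25.6%, and the seizure rats had 25.8, 26.0 and 26.1%. The seizure rat at 25.8% thus lay within the sham range, and those at 26.0 and 26.1% lay above it. The difference was 0.465 points (26.0 ± 0.173%, n = 3, against 25.5 ± 0.413%, n = 7; exact permutation p = 0.075, adjusted 0.3). The smallest p these designs allow is 0.0286 for kindling and 0.00833 for kainic acid. Between the models the difference was larger with kainic acid by 0.349 points (exact permutation p = 0.401, adjusted 0.6). Kainic acid sham minus kindling sham was -0.182 points (exact permutation p = 0.524, adjusted 0.6). The CpGs outside the islands, 24 in number, had means of 92.1, 91.6, 91.1 and 91.3% in kindling sham, kindling seizure, kainic acid sham and kainic acid seizure rats. Of 15 such tests in all, 11 of them added after seeing the data for the islands, the CpGs outside them and the islands minus the floor, 0 had an exact permutation p under 0.05, and the smallest was 0.0667 (adjusted 0.281).

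No Bdnf cluster passed limma's test. In kindling, 0 of 9 clusters had an adjusted p under 0.05 (0% of the 62552 clusters of the table). At an unadjusted p under 0.05 it was 1 of 9 (4.65% of all clusters), which was cluster 5. Its difference in kindling was 1.66 points with all its CpGs (95% interval 0.0254 to 3.30, unadjusted p = 0.0469, adjusted p = 0.975). The seizure rats were at 26.8 ± 1.92% and the sham rats at 25.1 ± 1.35% (SD, n = 4 each). Without kindling seizure replicate 4, the highest rat of cluster 5, that difference was 0.732 points. Without the 2 CpGs over 80%, the difference of the means was 1.05 points. In the kainic acid model, 0 of 9 clusters passed (0% of the table), and 0 of 9 had an unadjusted p under 0.05 (3.8% of all clusters).

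For the cluster means, the intervals give the range of differences that the fit allows. Across the 9 clusters the 95% intervals of limma reached from -2.71 to 3.30 points in kindling and from -3.67 to 3.03 points in the kainic acid model. Each of the 20 single CpGs tested, chosen for a range of at least 10 points, had a wider interval than any cluster in both models. In the kainic acid model the narrowest was -3.37 to 4.75 points at 100767582. The widest there was -6.15 to 19.5 points at 100816034. At cluster 6 the difference was 0.159 points in kindling (-0.750 to 1.07) and 0.449 in the kainic acid model (-0.438 to 1.34). The most negative difference was that of cluster 7 in the kainic acid model, -1.45 points (-3.67 to 0.761, adjusted p = 0.978). Groups that did not overlap were seen for 0 of 9 clusters in kindling (1.9% of all clusters) and 0 of 9 in the kainic acid model (2.04%). The difference was above 0 in 6 of 9 clusters in kindling (62.6% of all clusters) and in 8 of 9 in the kainic acid model (65% of all clusters). The median difference of the Bdnf clusters was 0.159 points in kindling, beside 0.235 points over all clusters, and 0.449 beside 0.288 points in the kainic acid model.

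**Figure D5:**
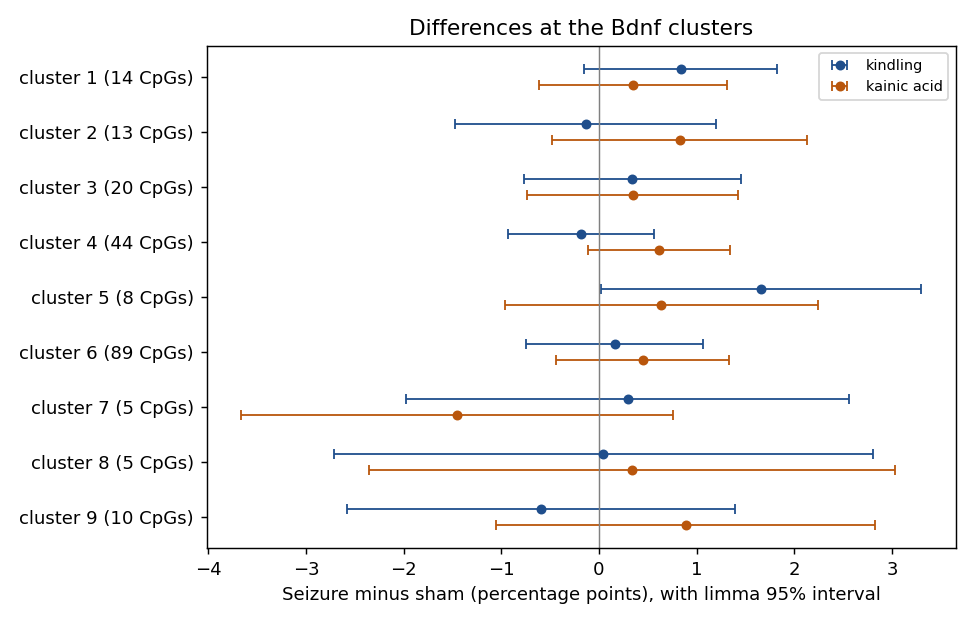
Seizure minus sham in percentage points (horizontal axis) at the 9 Bdnf clusters, all their CpGs included, in kindling and in the kainic acid model. Points are differences of group means and bars are 95% intervals from limma. The interval of cluster 5 in kindling starts at 0.0254 points, and the other 17 intervals contain 0.

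Between the models, 0 of 9 clusters passed limma's test of the difference between both contrasts (0% of the table), and 0 of 9 had an unadjusted p under 0.05 (3.84% of all clusters). Between the sham groups 0 of 9 passed (0% of the table), and 1 of 9 had an unadjusted p under 0.05 (5.05% of all clusters). This was cluster 1, where kainic acid sham rats were higher by 0.956 points (95% interval 0.0839 to 1.83, adjusted p = 0.946). Its values were 17.4 ± 0.705% (SD, n = 7) against 16.5 ± 0.883% (n = 4). The CpG at 100767587 in this cluster had 7.32 ± 2.58% in kainic acid sham and 2.36 ± 2.17% in kindling sham rats, a difference of 4.96 points (limma adjusted p = 0.727).

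Single CpGs were tested where their level ranged over at least 10 points among the 18 rats, which held for 20 Bdnf CpGs and 396316 of the table. In kindling, 0 of 20 passed limma's test (0% of the table), and 0 of 20 had an unadjusted p under 0.05 (5.83% of the table). In the kainic acid model, 0 of 20 passed (0.00151% of the table, or 6 CpGs), and 0 of 20 had an unadjusted p under 0.05 (3.53%). In the difference between models 0 of 20 passed (0.000757%), with 0 at an unadjusted p under 0.05 (4.6%). Between sham groups 0 of 20 passed (0%), with 1 at an unadjusted p under 0.05 (6.35%). Without the range filter, 0 of 212 passed in either model, where the table had 0% in kindling and 0.00213% in the kainic acid model. At an unadjusted p under 0.05 it was then 15 of 212 in kindling (4.73% of the table) and 7 of 212 in the kainic acid model (5.23%). Groups did not overlap at 4 of 212 CpGs in kindling (1.87% of the table) and at 2 of 212 in the kainic acid model (1.93%). In the kainic acid model these were 100787809 (seizure 99.7 against sham 97.8%) and 100815988 (98.5 against 94.8%). The first is one of the 30 CpGs over 80% inside the islands.

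Among these 20 CpGs, the largest gains in kindling were at 100787394 in cluster 5 (4.31 points), 100787002 in cluster 5 (3.88 points) and 100767438 in cluster 1 (3.10 points). The first and the third belong to the 30 CpGs over 80%. At 100787394 the kindling sham rats had 97.3, 90, 90.9 and 100% and the seizure rats 100, 95.5, 100 and 100%, with an interval of -0.282 to 8.91 points (limma adjusted p = 0.866). At 100787002 the kindling sham rats reached 8.33% and the seizure rats 16.6%, with medians of 1.14 and 3.49%. The gain there rests on 1 rat and was 0.541 points without kindling seizure replicate 4. The largest losses in kindling among the 20 were at 100788914 (-3.74 points), 100771391 (-2.18 points) and 100771384 (-2.15 points). The first lies in cluster 6, after the placed start, and had 5.54 ± 4.92% in kindling sham and 1.79 ± 1.21% in seizure rats (SD, n = 4 each), with an interval of -8.14 to 0.657 points. The others lie in cluster 4 and were measured on the plus strand only.

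Among the same 20 CpGs, the largest gains in the kainic acid model were at 100816034 in cluster 9 (6.66 points), 100771384 in cluster 4 (4.37 points) and 100800859 in cluster 8 (2.07 points). The first rests on 1 sham rat at 58.8%, since the median of the sham rats was 97.1% and the seizure rats ran from 97.4 to 100%. Without that rat the difference was 1.18 points. At 100771384 the kainic acid seizure rats had a mean of 6.07 ± 6.26% (SD, n = 3) and the sham rats 1.71 ± 1.69% (n = 7). Without kainic acid seizure replicate 3, at 12.5%, the difference was 1.15 points. The difference there had the opposite sign in kindling, and the test of the difference between models gave 6.51 points (limma 95% interval -0.521 to 13.5, adjusted p = 1). The largest losses among the 20 were at 100788914 (-1.78 points), 100767438 (-1.77 points) and 100799158 in cluster 7 (-1.60 points). Seizure and sham rats overlapped at each of these CpGs in both models, and groups that did not overlap were seen at 0 of the 20 CpGs in kindling (2.45% of the table) and in the kainic acid model (1.48%).

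Within each cluster the rats varied far more at some CpGs than at others. The steadiest Bdnf CpG among those with the lowest SD of their cluster was 100787961 in cluster 6, with 0.802 ± 0.522% (SD, n = 18). The most variable was 100816034 in cluster 9, with 95.1 ± 9.53%. In cluster 7 the CpG of intermediate level, 100799186, had an SD of 5.41 points and 100799292 one of 1.32 points. In cluster 8 the CpG at 100800866 had 3.96 and that at 100800836 had 1.01 points. The CpGs 100770351 in cluster 3 and 100768138 in cluster 2 were the most variable there, with SDs of 1.82 and 2.25 points, and 100770020 and 100768084 the steadiest, with 0.903 and 1.04 points. In cluster 1 the range was from 0.720 points at 100767464 to 3.61 at 100767587, in cluster 4 from 0.675 at 100771525 to 3.52 at 100771384, and in cluster 5 from 1.21 at 100787236 to 4.01 at 100787002. The steadiest CpG of cluster 9, 100815964, had an SD of 1.58 points and the most variable of cluster 6, 100788046, one of 3.22 points.

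Genes of the Bdnf pathway could be looked at where a RefSeq start window found a place that kept its distance to its neighbours and lay in a cluster, which held for 9 of 27 listed genes. For neurotrophin signalling these were Ntf3 and Ntf4, which encode further neurotrophins, and Sort1, which encodes a receptor that sorts them (3 of 11 genes). For activity-regulated genes they were the transcription factor genes Fosb, Npas4 and Egr1 and the synaptic pentraxin gene Nptx2 (4 of 8). For regulators of Bdnf transcription they were Creb1, which encodes CREB, and the repressor gene Rest (2 of 8). Their clusters had a median CpG of 1.09 to 7.86%, with Npas4 the highest. In both models 0 of 9 passed limma's test over all clusters, of which 0% passed. Seizure minus sham ranged from -0.0825 to 0.611 points in kindling and from 0.0869 to 0.986 points in the kainic acid model. The ends were Fosb and Sort1 in kindling and Rest and Egr1 in the kainic acid model.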

How the data were processed

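The deposited table holds a methylation fraction (beta value, 0 to 1) for each CpG cytosine and rat, per the labels and the values. Bismark, Bowtie2, methylKit, Trim Galore, FastQC and the build rn6 are listed in the submitters' processing notes, without versions or roles. The coverage minimum and any filter were not given in the sources used here. No read counts come with it, so depth is unknown and no interval is given for a single value.

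Strands were averaged per CpG and fractions turned into percent. Clusters, and CpGs with a range of at least 10 points, were tested with limma 3.58.1 in R 4.3.3 (data.table version 1.17.8). It was 1 fit over 4 groups on the fraction scale, with a variance trend and 14 residual degrees of freedom. P-values were Benjamini-Hochberg adjusted over all units of a contrast, and units were called at 0.05. Means over the gene were tested by exact permutation (70, 120, 8400 or 330 arrangements) with scipy 1.17.1, numpy 2.4.6, pandas 2.3.3 and Python 3.11.15. Figures used matplotlib 3.10.9. The limma model was checked on simulated fractions, with large changes added to units of intermediate level only. That check does not cover small changes, or changes at the low and high levels of most Bdnf CpGs.

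RefSeq windows (GRCr8) were placed where at least 6 CpGs matched by exact spacing, no measured CpG was foreign to the sequence and 1 place alone was valid. This rule replaced a stricter one that had left start 5 unplaced. It placed 6924 of 18831 windows with at least 6 CpGs, and 6022 of 6902 neighbouring pairs (87.3%) kept their distance within 200 kb.

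CpGs named are the 3 largest gains and losses per model among those tested and the most and least variable of each cluster. The members and lists were chosen with earlier results of these data known. Leaving out CpGs over 80% in clusters with a median under 10%, the relation to the floor, the motifs and the CCGG count were chosen after seeing the data. The gene lists were planned for an rn6 annotation and were placed by CpG spacing instead. Alternatives covered cluster gaps and sizes, tiles of 1000 bp, range filters, log2 odds, strands, the mean level as a covariate, fits within 1 model, replicate pairing and each rat left out. P-values measure the spread between the rats as labelled.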

Additional observations from a re-analysis of the deposited data

Results flagged for a closer look

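In the groups of 4, 4 and 7 rats, 1 rat stood far from the others of its group in 7 of 60 sets of values tried, over the gene mean, the islands, the clusters and the named CpGs. Chance flags about 1 in 20 groups of independent values with a normal spread. That rate does not carry over here, because the CpGs were named for their large differences, and 4 of the 7 sets hold a single rat beside others that all share a level of 0 or 100%. Of these, 3 are at the CpG 100771391 of cluster 4, measured on the plus strand only. A single rat was above 0 there in each of the 3 groups concerned. Kindling sham replicate 4 had 11.1%, kindling seizure replicate 3 had 2.38% and kainic acid sham replicate 7 had 1.85%. The other is the CpG 100787394 of cluster 5, where kindling seizure replicate 2 had 95.5% and the others of its group 100%. At cluster 9, kainic acid sham replicate 5 had 92.2%, where the next lowest rat of its group had 96.0%. The same rat had 58.8% at the CpG 100816034 of that cluster, measured on the minus strand only, where the next lowest of the group had 89.7%, so both values share 1 source. At the CpG 100787002 of cluster 5, kindling seizure replicate 4 had 16.6%, and the next highest of its group had 3.81%. The group of 3 rats was not examined.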

How the results depend on the processing

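The counts of Bdnf clusters and CpGs called stayed at 0 under every alternative run, and the smallest adjusted p was 0.639 for a cluster and 0.660 for a named CpG. Without the CpGs over 80% the difference of the gene mean in kindling turned to -0.0100 points, and over CpGs with a range of at least 10 points the difference between models turned to -0.145. With gaps of at most 1000 bp, cluster 2 turned to 0.368 and cluster 3 to -0.0199 points in kindling. With the mean level as covariate, clusters 3, 6 and 8 turned to -0.0958, -0.289 and -0.0181 points in kindling, and clusters 3 and 6 to -0.171 and -0.0807 in the kainic acid model. On the log2 odds scale cluster 8 turned to -0.0399 in kindling. With the replicate block cluster 1 turned to -0.202 points in the kainic acid model. In the check made, same-numbered rats had r from -0.0494 to 0.0776, and the numbers were not taken to pair them. The gene means of kindling rats 1 to 4 nevertheless rose and fell alike by number. They were 26.2, 25.2, 26.1 and 25.2% in sham and 26.1, 25.6, 26.2 and 25.4% in seizure rats. For kainic acid, rats 1 to 3 had 25.8, 25.6 and 25.7% in sham and 25.8, 26.0 and 26.1% in seizure rats. Whether equal numbers mark a pair or a shared batch was not tested.

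Leaving out each rat in turn, the gene mean moved between -0.0408 and 0.271 points in kindling. It turned without sham replicate 2 or 4 or seizure replicate 3. In kindling, cluster 2 moved between -0.622 and 0.238, cluster 3 between -0.0153 and 0.649, cluster 4 between -0.376 and 0.0145, cluster 6 between -0.113 and 0.449, cluster 7 between -0.570 and 0.710 and cluster 8 between -0.885 and 1.37. In the kainic acid model cluster 8 moved between -0.580 and 0.883. In kindling CpG 100771391 moved between -3.11 and 0.595, 100787002 between 0.541 and 5.78, 100787394 between 2.79 and 6.13, 100788914 between -5.59 and -1.82 and 100771384 between -3.34 and -0.437. CpG 100767438 moved between -3.52 and 1.66, 100799158 between -3.11 and 0.2998, 100816034 between 1.18 and 8.04, 100771384 between 1.15 and 7.40, 100800859 between 0.895 and 3.22 and 100788914 between -3.84 and -0.743 in the kainic acid model.

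Over the whole table, clusters called ran from 0 to 5 in kindling and from 0 to 1 in the kainic acid model with a rat left out, and were 1 in the kainic acid fit within the model. CpGs called ran from 0 to 30 in kindling (0 with all rats, 2 with the replicate block, 12 within the model). In the kainic acid model they ran from 2 to 36 (6 with all rats, 28 without a range filter, 0 on the log2 odds scale, 17 with the replicate block, 14 within the model and 2 with the mean level as covariate). The cause of these changes was not tested. Unknown depth limits the single CpGs most: a CpG at 0% in one rat and 11.1% in another can differ by few reads.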
